A study of Mus musculus with 8 samples.

Results

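The 10 genes described here encode 9 chemokines (Ccl2, Ccl7, Ccl11, Cxcl1, Cxcl5, Cxcl12, Cxcl14, Cxcl16 and Cx3cl1) and the cytokine interleukin 6 (Il6). They were chosen by symbol, with earlier results of these data known, and all 10 were found among the 15111 genes with a value. RNA of cultured primary dermal fibroblasts was sequenced, with 4 control and 4 TGFβ1FKO libraries. Mice of both groups were adult and had been fed tamoxifen. TGFβ1FKO cells came from Tgfb1 fl/fl:Col1a2-CreERT mice, in which Cre is driven by the Col1a2 promoter and becomes active with tamoxifen. Control cells came from mice with the same floxed Tgfb1 alleles and no Cre (Tgfb1 fl/fl), so loss of Tgfb1 and the presence of Cre cannot be told apart. All cells were taken from uninjured skin and kept for 72 h in serum replacement medium on fibronectin, with no cytokine or other stimulus named in the labels. Neither the labels nor the methods say whether each library is a separate mouse, so p-values measure the spread between libraries.

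Chemokines are small secreted proteins that attract leukocytes along a gradient by binding G protein-coupled receptors. They are grouped by the spacing of their first cysteines into CC, CXC and CX3C ligands. Dermal fibroblasts are an important source of them in skin. CC ligands of the Ccl2 family draw monocytes, Ccl11 (eotaxin-1) draws eosinophils through Ccr3, and Cxcl1 and Cxcl5 draw neutrophils through Cxcr2. Cxcl12 and Cxcl14 are made constitutively in many tissues. Interleukin 6 acts through gp130 (Il6st) on Stat3. The comparison asks whether these genes differ in level in fibroblasts that lack Tgfb1, and whether a lower level of Ccl11 is shared by the others.

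The cysteine spacing that defines each class is shown in the coding sequence, because the results below are ordered by these classes. Each line gives 36 bases, 5′ to 3′ on the coding strand, of the first transcript of the gene in GENCODE M21 (GRCm38), and the capitals mark the codons of the first pair of cysteines of the motif.
Ccl2: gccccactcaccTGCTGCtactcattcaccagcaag
Ccl7: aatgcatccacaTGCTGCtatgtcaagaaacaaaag
Ccl11: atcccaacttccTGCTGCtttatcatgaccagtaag
Cxcl1: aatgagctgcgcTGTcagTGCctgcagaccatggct
Cxcl5: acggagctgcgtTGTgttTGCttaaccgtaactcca
Cxcl12: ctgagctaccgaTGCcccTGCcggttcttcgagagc
Cxcl14: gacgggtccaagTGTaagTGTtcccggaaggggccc
Cxcl16: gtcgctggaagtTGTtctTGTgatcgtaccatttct
Cx3cl1: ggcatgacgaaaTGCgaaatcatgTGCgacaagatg

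The cysteine codons were adjacent in Ccl2, Ccl7 and Ccl11. They were separated by 1 codon in the 5 Cxcl genes and by 3 codons in Cx3cl1, and Il6 is no chemokine. Cx3cl1 and Cxcl16, which are made as membrane-anchored proteins and then shed, had the longest coding regions, of 395 and 246 codons, whereas the other 7 ligands had 96 to 148. Ccl2 (chr11:82035571-82037453), Ccl7 (chr11:82045712-82047525) and Ccl11 (chr11:82057823-82062955) follow each other on the plus strand of chromosome 11 of GRCm38. Cxcl5 (chr5:90759360-90761624) and Cxcl1 (chr5:90891241-90893115) lie in a CXC cluster on chromosome 5. Il6 (chr5:30013114-30019981) is elsewhere on chromosome 5. Cxcl12 (chr6:117168535-117181367), Cxcl14 (chr13:56288643-56296551), Cxcl16 (chr11:70453983-70459984) and Cx3cl1 (chr8:94772009-94782427) lie apart from both clusters. Between the coding regions of Ccl7 and Ccl11, 65.7% of aligned bases were identical. The longest run of identical bases that a member shared with the transcript of another chemokine or Il6, among 38 such genes, was 15 to 25 bases, against a read length of 150 bases.

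Genes were compared on normalised counts, that is, reads divided by a factor for the depth of the library. The reads recovered from these values summed to between 16988998 and 23071528 per library. Tgfb1, the deleted gene, had 1374 ± 85.4 normalised counts in controls and 277 ± 42.5 in TGFβ1FKO cells (mean ± SD, n = 4 per group here and in the following), a log2 fold change of −2.31, and some Tgfb1 RNA remained. All 10 fibroblast markers had values, with Col1a1 as the highest (653489 ± 54463 in controls and 664781 ± 27436 in TGFβ1FKO cells), and their median log2 fold change was 0.01. Of the 8 macrophage markers, Ptprc, Adgre1 and Itgam had no value here, whereas 5 had values. The highest of these was Lyz2, with 287 ± 46.0 normalised counts in controls and 231 ± 83.3 in TGFβ1FKO cells. Of the 6 T cell markers, 2 had values (Trac and Lck). A gene counted as called when its p-value in limma's test, adjusted by the Benjamini-Hochberg method, was under 0.05 and its absolute log2 fold change exceeded 0.6. These thresholds called 13 genes of the table (0.0860%), 12 of them lower in TGFβ1FKO cells (0.0794%).

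In these bulk cultures, for which no stimulus was named, the levels of the 10 genes spanned a wide range. Per kb of merged exons, the mean control level of Ccl7, a monocyte attractant, was 6257 ± 360.3 normalised counts and the highest of the 10. That of Il6 was 6.50 ± 1.18 and the lowest, a ratio of 962. Between them the order in controls was Ccl2, Cxcl12, Ccl11, Cxcl14, Cxcl1, Cx3cl1, Cxcl5 and Cxcl16. The libraries of most neighbours in this order were separate. In controls, those of Ccl11 and Cxcl14, of Cx3cl1 and Cxcl5 and of Cxcl5 and Cxcl16 overlapped. Ccl11 moved in this order from rank 4 in controls to rank 5 in TGFβ1FKO cells, behind Cxcl14. It overlapped with Cxcl14 in both groups. Its levels per kb lay between 298 and 382 in controls, above all Cxcl1 values (138 to 172). In TGFβ1FKO cells they lay between 153 and 237 and overlapped with those of Cxcl1 (129 to 168).

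**Figure D1:**
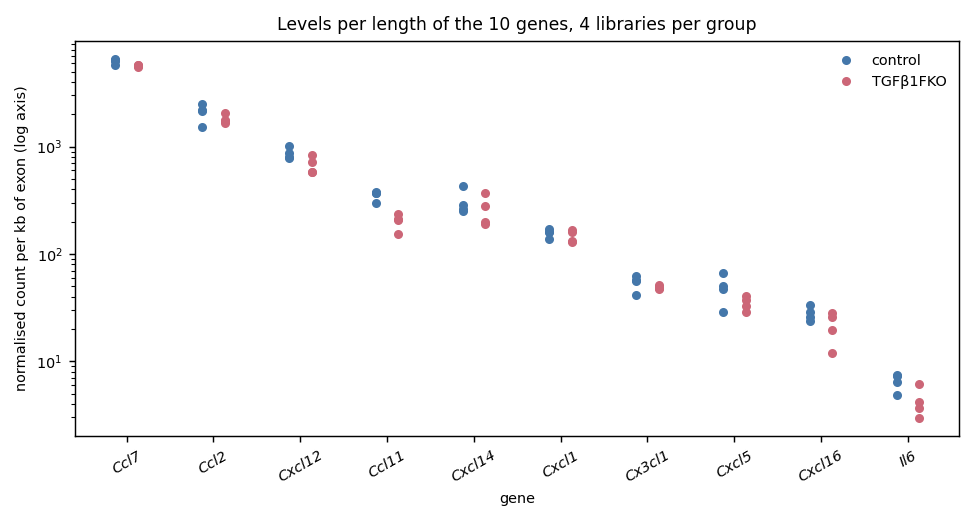
Normalised counts per kb of merged exon (log axis) of the 10 genes in the order of their control means, with 1 point per library, 4 control libraries in blue and 4 TGFβ1FKO libraries in red. Levels span from 6257 for Ccl7 to 6.50 for Il6 in controls, and the Ccl11 points of both groups are separate.

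Of the 10 genes, Ccl11 fell and passed both thresholds, and 9 were not called. The fall of Ccl11 was already known from these data, so its call is not independent evidence. All 10 had a log2 fold change below 0, which 49.1% of the genes of the table had. The median was −0.31 over the 10 genes and −0.25 over the 9 without Ccl11, against 0.00 over all genes. The log2 fold change stayed below 0 in all 10 when any 1 of the 8 libraries was left out. Before adjustment, 3 of the 10 had a p-value under 0.05 by limma (Ccl11, Cxcl12 and Ccl7), all lower, against 7.46% of all genes in either direction and 3.87% lower. The groups did not overlap in 1 of the 10, Ccl11, against 3.79% of all genes in either direction and 2.10% lower. For 7 of the 10, the 95% interval of the log2 fold change crossed 0. All 10 genes were measured in the same 8 libraries, so their directions are not independent of each other.

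**Figure D2:**
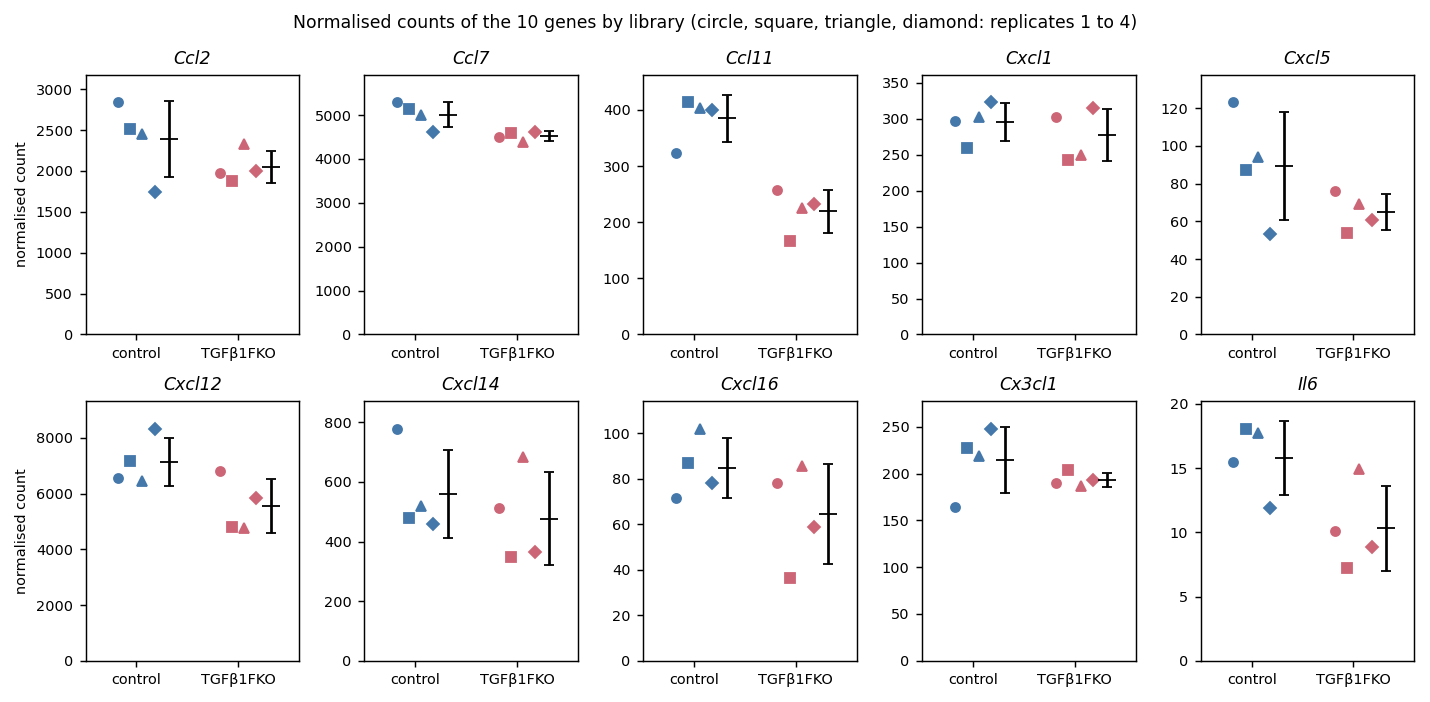
Normalised counts (linear axes from 0) of each of the 10 genes in 4 control (blue) and 4 TGFβ1FKO (red) libraries, with the mean and SD beside the points. In Ccl11 the highest TGFβ1FKO library (256) lies below the lowest control library (323), while the groups overlap in the other 9 panels.

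Ccl11 had 323, 413, 404 and 399 normalised counts in control libraries 1 to 4 and 256, 166, 225 and 232 in TGFβ1FKO libraries 1 to 4. Every TGFβ1FKO library was below every control library. The mean was 385 ± 41.8 in controls and 220 ± 38.5 in TGFβ1FKO cells, or 57.1% of the control mean. In these bulk samples, fewer cells that express a gene and less RNA of it per cell cannot be told apart. The log2 fold change was −0.82 ± 0.13 (SE, 95% interval −1.10 to −0.53). It had an unadjusted p-value of 3.63e-05 and an adjusted p-value of 0.0422 in limma's test, and an exact two-sided permutation p-value of 0.0286, the smallest that 4 libraries against 4 allow. The fall of Ccl11 was already known from these data, so these p-values are not independent evidence of it. Since the adjusted p-value lay close to the threshold, the call depended on single libraries. It held without control replicate 1 (adjusted p = 0.0430) and without TGFβ1FKO replicate 1 (0.0303). It was lost without control replicate 2 (0.177), 3 (0.240) or 4 (0.0554) and without TGFβ1FKO replicate 2 (0.0582), 3 (0.1005) or 4 (0.120), while the log2 fold change stayed between −0.90 and −0.69. When genes were required to have at least 10 reads in every library, the adjusted p-value was 0.106.

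Ccl7 and Ccl2, which attract monocytes and lie next to Ccl11 on chromosome 11, were not called. Ccl7 had 5290, 5135, 5009 and 4615 normalised counts in the control libraries and 4499, 4594, 4380 and 4616 in the TGFβ1FKO libraries. It varied least among the 10 genes, with coefficients of variation of 5.76% in controls and 2.37% in TGFβ1FKO cells, and the highest TGFβ1FKO library only just exceeded the lowest control. Its log2 fold change was −0.15 (95% interval −0.26 to −0.03, adjusted p = 0.592 in limma's test), a mean of 90.2% of control. Ccl2 had 2839, 2514, 2455 and 1739 normalised counts in the control libraries and 1981, 1883, 2328 and 2002 in the TGFβ1FKO libraries. The lowest of the 8 was control library 4, and the log2 fold change was −0.20 (−0.47 to 0.06, adjusted p = 0.728 in limma's test). The intervals of both genes lie above the estimate for Ccl11. Ccl12, the next chemokine on the other side of Ccl11, had no value here. Beyond Ccl12 on the plus strand lies Ccl8 (chr11:82115185-82116799), which is not a member. Its log2 fold change was −0.47 (95% interval −0.75 to −0.20, adjusted p = 0.415 in limma's test), with 3 TGFβ1FKO libraries below all controls. Ccl8 is described further below with the other chemokine ligands. Gm17268 overlaps Ccl2 on the opposite strand and had no value either. The libraries carried no strand information, so reads could not be assigned by strand. Whether the overlap holds exons of both genes was not examined.

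Cxcl12, which binds Cxcr4 and retains leukocytes and progenitors in tissue, was the member with the most reads. It had 6551, 7163, 6459 and 8326 normalised counts in the control libraries and 6798, 4796, 4760 and 5828 in the TGFβ1FKO libraries. The TGFβ1FKO libraries 2, 3 and 4 were below all controls, whereas library 1 was within their range. The log2 fold change was −0.37 (95% interval −0.61 to −0.13), with an unadjusted p-value of 0.00575 and an adjusted p-value of 0.483 in limma's test. Cxcl14, a constitutive chemokine of skin, had 779, 479, 520 and 460.2 normalised counts in the control libraries and 513, 347, 683 and 363 in the TGFβ1FKO libraries. Both groups were widely spread, with coefficients of variation of 26.5% in controls and 32.8% in TGFβ1FKO cells. The log2 fold change of −0.25 (−0.70 to 0.19, adjusted p = 0.811 in limma's test) was smaller than this spread.

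The neutrophil attractants Cxcl1 and Cxcl5 were not called. Cxcl1 had 298, 259, 303 and 323 normalised counts in the control libraries and 302, 242, 249.9 and 316 in the TGFβ1FKO libraries, and the groups covered nearly the same range. Its log2 fold change of −0.10 (95% interval −0.33 to 0.14, adjusted p = 0.872 in limma's test) was the smallest of the 10. Cxcl5 had 123, 87.1, 94.3 and 53.3 normalised counts in the control libraries and 76.0, 53.9, 68.9 and 60.9 in the TGFβ1FKO libraries. Control libraries 1 and 4 were the highest and the lowest of the 8, and the log2 fold change was −0.41 (−0.90 to 0.08, adjusted p = 0.705 in limma's test). Ppbp, Pf4, Cxcl3 and Cxcl15, which lie between Cxcl5 and Cxcl1 in the cluster, and Cxcl2 beside Cxcl1, had no value here. For Rassf6, the gene on the other side of Cxcl5, the log2 fold change was 0.08 with an adjusted p-value of 0.951 in limma's test.

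The membrane-anchored ligands were low. Cxcl16, the ligand of Cxcr6, had 71.4, 87.1, 102 and 78.0 normalised counts in the control libraries and 78.0, 36.2, 85.5 and 58.7 in the TGFβ1FKO libraries. The value of TGFβ1FKO library 2 was the lowest, and the log2 fold change was −0.44 (95% interval −0.97 to 0.08, adjusted p = 0.703 in limma's test). The Cxcl16 gene overlaps Zmynd15 on the opposite strand. Whether the overlap holds exons of both genes was not examined, and reads could not be assigned by strand. Cx3cl1 (fractalkine), the ligand of Cx3cr1, had 164, 227, 218 and 248 normalised counts in the control libraries and 189.5, 204, 187 and 193 in the TGFβ1FKO libraries. All TGFβ1FKO values lay inside the control range, and the log2 fold change was −0.13 (−0.40 to 0.13, adjusted p = 0.832 in limma's test).

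Il6 was near the limit of what these libraries could measure, with 7 to 18 reads per library. It had 15.5, 18.1, 17.7 and 11.9 normalised counts in the control libraries and 10.1, 7.25, 14.9 and 8.86 in the TGFβ1FKO libraries. The TGFβ1FKO libraries 1, 2 and 4 were below all controls, and library 3 was among them. The log2 fold change was −0.60 (95% interval −1.28 to 0.08, adjusted p = 0.699 in limma's test), the next in size after Ccl11, and the pseudocount of 1 understates it at this level. The other 9 genes had at least 10 reads in every library.

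**Figure D3:**
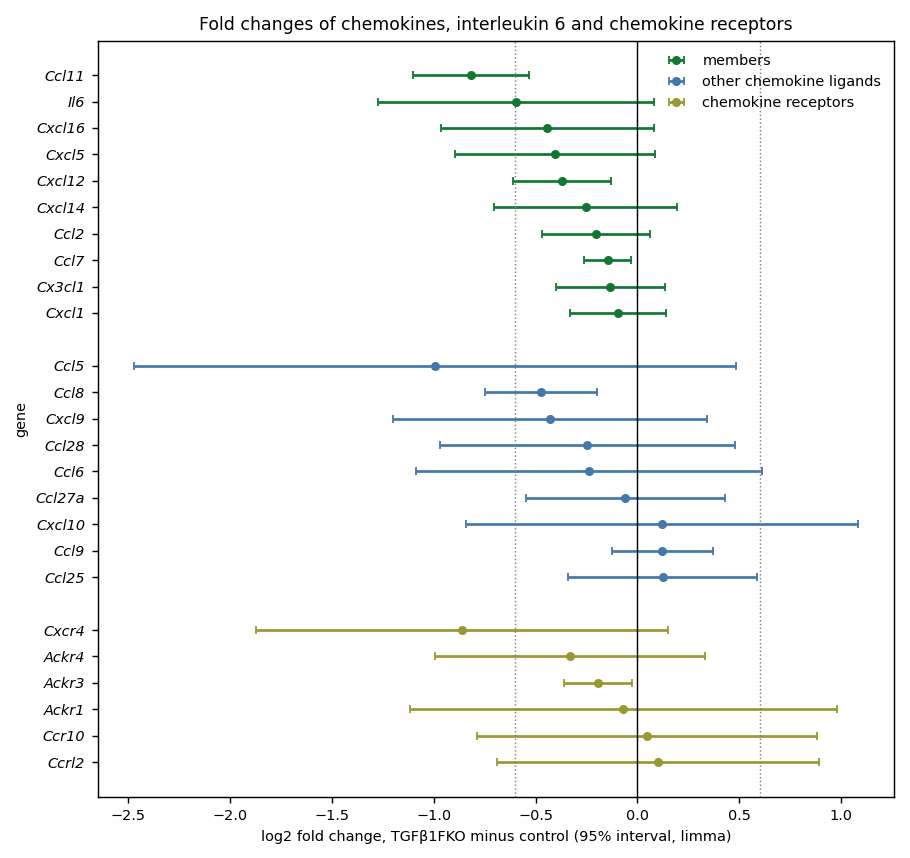
Log2 fold changes (TGFβ1FKO minus control) with 95% intervals from limma for the 10 genes (green), 9 other chemokine ligands (blue) and 6 chemokine receptors (olive), with dotted lines at the threshold of 0.6 in either direction. All 10 green points are below 0, and Ccl11 is the only gene shown whose interval excludes 0 and whose estimate is beyond −0.6.

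To ask whether Ccl11 fell by more than the others, its log2 value was compared with that of each of the 9 within each library. Ccl11 was singled out with its fall already known, so these tests are not independent evidence. Relative to all 9 genes, Ccl11 was lower in TGFβ1FKO cells on average. The groups of 4 differences did not overlap for Cxcl1 (−0.72, limma 95% interval −1.13 to −0.31), Cx3cl1 (−0.68, −1.11 to −0.25), Ccl7 (−0.67, −1.11 to −0.23) and Cxcl12 (−0.45, −0.85 to −0.05). Each of these 4 had an exact two-sided permutation p-value of 0.0286, the smallest that this design allows, and 0.0643 after adjustment over the 9 pairs. For Ccl2 the difference was −0.61 (−1.12 to −0.11) with an exact permutation p-value of 0.0857, adjusted 0.129. For the remaining 4 pairs the interval included 0. The difference was −0.56 for Cxcl14 (−1.16 to 0.03), −0.41 for Cxcl5 (−0.99 to 0.17), −0.37 for Cxcl16 (−0.82 to 0.07) and −0.22 for Il6 (−0.70 to 0.26). A change equal to that of Ccl11 was therefore within the error for these 4 genes. For 6 of the 9 genes the interval of the own log2 fold change lay above the estimate of −0.82 for Ccl11, and for 3 (Cxcl5, Cxcl16 and Il6) it included this value.

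By library, Ccl11 differed from its control mean by −0.25, 0.11, 0.08 and 0.06 on the log2 scale in control libraries 1 to 4 and by −0.58, −1.20, −0.76 and −0.72 in TGFβ1FKO libraries 1 to 4. The median of the other 9 genes lay at 0.01, 0.04, 0.04 and −0.12 in the controls and at −0.15, −0.56, −0.18 and −0.28 in the TGFβ1FKO libraries. Ccl11 was below this median in every TGFβ1FKO library. The mean difference between Ccl11 and the median of the 9 changed by −0.53 from control to TGFβ1FKO cells, without overlap of the groups (exact two-sided permutation p = 0.0286). With any 1 control library left out, this p-value was 0.0286, the smallest that 4 libraries against 3 allow. With any 1 TGFβ1FKO library left out it was 0.0571, the next possible value, and the remaining groups still did not overlap. TGFβ1FKO library 2 held the lowest value of the 8 libraries for 5 of the 10 genes, and without it the log2 fold change of Ccl11 was −0.69. Each of the 10 genes had its highest value in a control library, and 7 had their lowest in a TGFβ1FKO library.

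**Figure D4:**
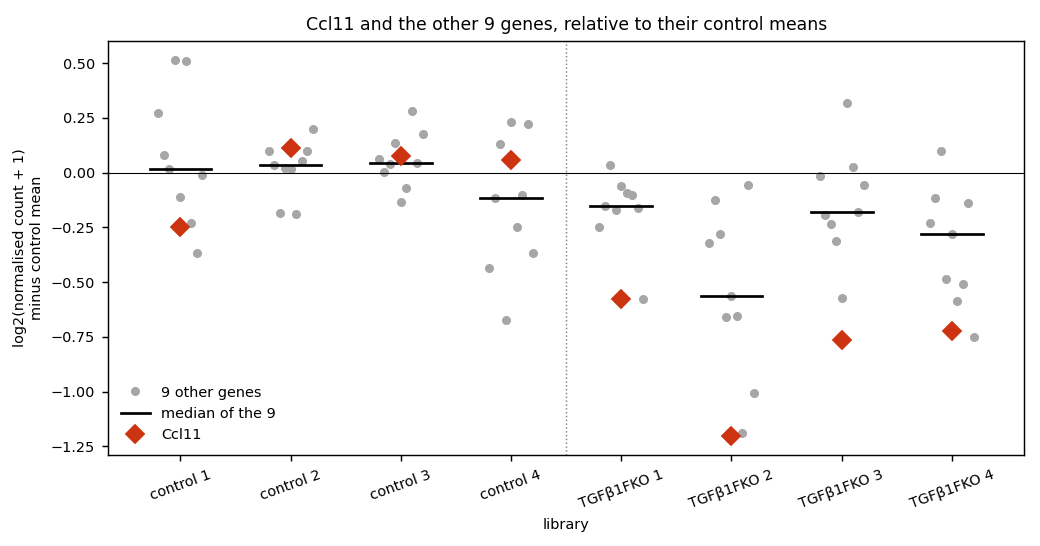
Log2(normalised count + 1) minus the control mean of the same gene, by library, for Ccl11 (red diamonds) and the other 9 genes (grey points), with their median as a black line. Ccl11 lies below the median of the others in all 4 TGFβ1FKO libraries, and the median itself is lowest in TGFβ1FKO library 2 (−0.56).

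The 5 genes whose pattern over the 8 libraries was most like that of Ccl11 were listed. They were chosen by the smallest root mean square difference of centred log2 values. Genes needed a mean of at least 50 normalised counts, which 11561 genes reached. They were the nuclear receptor gene Nr2f1 (0.180), the Wnt agonist Rspo3 (0.181), the nuclear receptor gene Nr4a2 (0.183), Kctd12 (0.190) and Olfml2a (0.198). Among these 5, Olfml2a was called, with a log2 fold change of −0.87 and an adjusted p-value of 0.0422 in limma's test. The closest of the 9 other members was Cxcl12, with a difference of 0.28. Most genes searched are not chemokines, and the mean of Il6 was below the minimum. The 5 were also picked on these same values. The list therefore does not bear on whether the fall of Ccl11 is shared by other chemokines.

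Lists of related genes were examined in the same fit. Of 29 further chemokine ligands, 9 had values, 6 with a log2 fold change below 0, none called by limma and 1 with an unadjusted p-value under 0.05. This was Ccl8, of the CC family, with 2231 ± 204 normalised counts in controls and 1631 ± 367 in TGFβ1FKO cells. Its log2 fold change was −0.47 (95% interval −0.75 to −0.20), with an unadjusted p-value of 0.00269 and an adjusted p-value of 0.415 in limma's test, and the groups overlapped. Ccl9 had a log2 fold change of 0.12 and Ccl5, with fewer than 15 normalised counts in every library, one of −0.99 (−2.47 to 0.48). The median of the 9 was −0.24. Of 23 chemokine receptors, 6 had values, none was called by limma and 1 had an unadjusted p-value under 0.05. This was Ackr3, which scavenges Cxcl12 (1126 ± 121 in controls and 980.4 ± 44.5 in TGFβ1FKO cells, log2 fold change −0.19, unadjusted p = 0.0250, adjusted p = 0.632 in limma's test). Ackr4, another scavenging receptor, had a log2 fold change of −0.33 (−0.99 to 0.33). Cxcr4, the signalling receptor of Cxcl12, had fewer than 8 normalised counts in every library. Ccr3, Ccr2, Cxcr2, Cxcr6 and Cx3cr1, the receptors of the other ligands, had no value here.

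The receptor and signalling chain of interleukin 6 showed no called gene among 17 with values of 19 listed, 11 of them with a log2 fold change below 0. Il6st, the shared signal-transducing receptor, had 7706 ± 887 normalised counts in controls and 8280 ± 228 in TGFβ1FKO cells (log2 fold change 0.11), and the kinase gene Jak1 had a log2 fold change of 0.05. Lif, a cytokine of the same family, had 256 ± 31.6 normalised counts in controls and 204 ± 19.2 in TGFβ1FKO cells without overlap (−0.32, adjusted p = 0.555 in limma's test) and was the 1 gene of this list with an unadjusted p-value under 0.05. Cntfr, a receptor chain of the family at 11.97 and 5.88 normalised counts on average, did not overlap either (−1.36, −2.75 to 0.04). NF-κB is known to drive many inflammatory chemokine genes. Of 22 genes of this pathway and its targets, 9 had a log2 fold change below 0, none was called by limma and 1 had an unadjusted p-value under 0.05. This was Icam1, a leukocyte adhesion molecule, which was higher in TGFβ1FKO cells without overlap (768 ± 45.2 and 958 ± 68.8, log2 fold change 0.32, unadjusted p = 0.000560, adjusted p = 0.169 in limma's test). Tnfaip2, Vcam1 and Nfkbiz had log2 fold changes of 0.03, 0.02 and −0.26.

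Of 18 receptors and signalling genes of interferon, tumour necrosis factor and interleukins, 11 had a log2 fold change below 0 and none was called by limma. There were 2 with an unadjusted p-value under 0.05, and of these Tnfrsf1b had a log2 fold change of −0.18 (unadjusted p = 0.0166 in limma's test). Tnfrsf1a and Il4ra had log2 fold changes of −0.03 and −0.18. Of 20 other cytokines, 15 had values, none was called by limma and 2 (Tnfsf13b and Il1rn) had an unadjusted p-value under 0.05. Csf1, the macrophage growth factor and the most highly counted of them, had 16432 ± 159 normalised counts in controls and 17774 ± 870.4 in TGFβ1FKO cells, without overlap (log2 fold change 0.11). Mif had a log2 fold change of −0.03. Tnfsf13b (BAFF) had 18.9 ± 4.00 and 9.36 ± 0.55 normalised counts without overlap (−0.92, adjusted p = 0.486 in limma's test), and Il1rn had a log2 fold change of −0.97 (−1.91 to −0.04, adjusted p = 0.657). Over the 6 lists, 8 of 87 genes with values (9.20%) had a p-value under 0.05 before adjustment, near the share of 7.46% in the table, and in 5 (5.75%) the groups did not overlap, against 3.79% in the table. A log2 fold change below 0 was found for 50 of these 87 genes and one above 0 for 37.

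Of the markers of other cell types, those of Schwann cells separated the groups. All 6 Schwann cell markers with values (of 7 listed) were lower in TGFβ1FKO cells without overlap, 3 were called, among them Sox10 and Foxd3, and the summed level of the 6 was 259 to 824 normalised counts in controls and 72.5 to 123 in TGFβ1FKO cells. Endothelial markers summed to 538 to 830 and 521 to 560.3, and all 8 had a log2 fold change below 0 (median −0.55), with none called by limma and 2 at an unadjusted p-value under 0.05. Macrophage markers (5 of 8 with values, Lyz2 the highest) summed to 563 to 653 and 379 to 621. Pericyte markers (6 of 7, Notch3 the highest) summed to 1578 to 2347 and 1744 to 2432. None was called by limma, and 2 had an unadjusted p-value under 0.05. These were Myh11, with a log2 fold change of 0.71 without overlap of the groups (adjusted p = 0.0649 in limma's test), and Cspg4, with one of −0.50, both named after their values were seen. The markers of adipocytes (2 of 6, Lpl the highest) summed to 3340 to 5546 and 3830 to 5890. Keratinocyte markers (3 of 7, Krt10 the highest) summed to 91.2 to 120 and 91.3 to 124, with none called by limma and 1 at an unadjusted p-value under 0.05 (Trp63, log2 fold change 0.57, also named after its value was seen). T cell markers (2 of 6, Trac the highest) summed to 17.0 to 26.7 and 16.2 to 35.5, and none of the 7 mast cell markers had a value. The part of these cells in the level of Ccl11 or of the other 9 genes was not tested.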

How the data were processed

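Bulk RNA of primary dermal fibroblasts was sequenced as paired-end, non-directional libraries. Per the labels and the submitters' processing notes, the authors aligned reads with HISAT2 2.0.5 to GRCm38, and the notes also name featureCounts 1.5.0-p3 and DESeq2 1.42.0. The deposited values are a signal that is never negative, namely counts divided by DESeq2 size factors to which 0.5 had been added. Over the 8 libraries, reads of a gene summed to at least 41 in this table of 15111 genes. The table also holds the authors' fold changes and p-values, which were not used.

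The 0.5 was subtracted and 1 added as a pseudocount. Log2 values of all genes were compared with limma 3.58.1 (R 4.3.3) with a mean-variance trend, by genotype as labelled. The limma intervals for the differences between Ccl11 and other members came from a separate fit without this trend. That fit used Ccl11 minus every other gene of the table, so all its differences share the values of Ccl11. Single values were compared with exact permutation tests of the difference in means, over all ways to divide the libraries between the groups. With the 0.5 subtracted, 100% of low values were whole multiples of the value of 1 read (tolerance 0.1), which gave the reads per library. The values were treated as a normalised signal, and no count model was used.

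The members and lists were chosen with earlier results of these data known. Named are all members, Tgfb1, neighbours in the clusters, 5 genes most like Ccl11 and, per list, the called genes, the 2 with the highest mean and the 2 with the smallest p-value (markers: the highest). Some results that this rule would name are not reported here. GENCODE M21 held 15105 of the genes and gave coordinates, exons and sequences. Alternatives covered the scaling, a minimum of 10 reads, pseudocounts of 0.5 and 5, a block for the replicate number, and fits that left out each library in turn.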

Additional observations from a re-analysis of the deposited data

Results flagged for a closer look

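Ccl11 in control library 1 stood apart from the other controls. It had 323 normalised counts, against 399 to 413 in the other 3 control libraries. Of 24 groups of 4 libraries examined in this way, 1 was found, where about 1 in 20 is expected by chance. Without this library the log2 fold change of Ccl11 was −0.90 (adjusted p = 0.0430 in limma's test).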

How the results depend on the processing

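The log2 fold change of Ccl11 kept its direction under all 13 alternatives, and that of Tgfb1 also its call. When every library had to hold at least 10 reads of a gene, 12946 genes were tested, the adjusted p-value of Ccl11 in limma's test was 0.106 at a log2 fold change of −0.82, 0 of the 10 genes and 3 genes of the table were called, and Il6 was left out. The cause was not tested. Scaling by TMM (adjusted p = 0.0392) and pseudocounts of 0.5 (0.0441) and 5 (0.0360) kept the call. With 1 library left out at a time, the log2 fold change of Ccl11 was −0.90 to −0.69, 0 to 1 of the 10 genes and 5 to 32 genes of the table were called, and the difference between Ccl11 and the median of the others was −0.64 to −0.48. No member other than Ccl11 was called under any of these alternatives.

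Replicate numbers are shared by the groups, but same-numbered libraries did not deviate together (correlations of −0.13 to 0.16 over 11561 genes), and 2 of 8 libraries correlated best with their own number. With the replicate number as a block, 31 genes were called in place of 13, and Ccl11 had an adjusted p-value of 0.0414 in limma's test. Planned tests with edgeR and DESeq2 on recovered reads were not run, and the values were treated as a normalised signal throughout. The comparison of Ccl11 with the other members was not run with the block, nor with the minimum of 10 reads, which removed Il6. Depth limits Il6 (7 to 18 reads per library) most.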
